A study of Mus musculus with 2 samples.

Results

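The 44 autosomal protein-coding genes whose symbols begin with Mapk, Map2k, Map3k, Map4k or Mapkapk and end in a number were taken from 20780 protein-coding genes on chromosomes 1 to 19 (GENCODE M21, mm10). Of 46 symbols that fit the pattern, 1 lies off these chromosomes and 1 was left out by the rule. The rule uses symbols and no measured value, though it was set with earlier results of these data known, and the members fall into 5 tiers of 5 MAP4K, 16 MAP3K, 7 MAP2K, 13 MAPK and 3 MAPKAPK genes. Their chromatin was read from H3K36me3 ChIP-seq of macrophages cultured from the bone marrow of C57BL/6J mice and left unstimulated. There was 1 group of 2 biological replicates, which the labels place under a single donor record, with the age of the mice not collected. No other genotype, treatment or time was included, so nothing was compared between conditions, values are given for each replicate, and no test across samples was made. The measure is the covered percent, the share of the gene body from annotated start to annotated end that lay under the authors' peaks.

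H3K36me3, the trimethylated form of lysine 36 of histone H3, is laid down along gene bodies behind elongating RNA polymerase II, and so marks genes that are being transcribed through. In a MAP kinase cascade a MAP3K phosphorylates a MAP2K, the MAP2K phosphorylates a MAP kinase on a threonine and a tyrosine of its activation loop, and the MAP kinase acts on transcription factors and on further kinases, among them the MAPKAP kinases. MAP4Ks lie upstream of MAP3Ks. In macrophages these cascades carry signals from Toll-like and cytokine receptors to inflammatory gene expression.

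H3K36me3 was detected on most members, while the number covered widely differed between the replicates. In replicate 1, 28 of 44 members (63.6%) held a peak, where 30.5% of all autosomal coding genes did, and in replicate 2, 31 (70.5%) did, against 39.9%. The members were longer, with a median of 42.5 kb against 17.6 kb. Between 20 and 100 kb, 17 of 22 members held a peak in each replicate, beside 3315 and 3960 of all 7301 such genes. At least 20% of the body was covered in 4 members (9.09%) in replicate 1, beside 8.06% of all autosomal coding genes, so that share was near the background. In replicate 2, 17 members (38.6%) reached 20%, beside a background of 24.6%. The 4 of replicate 1 also reached it in replicate 2, where 8.03% of all genes reached it in both. These were Map3k8 (34.2% and 72.1% in replicates 1 and 2), Mapk7 (32.7% and 60.5%), Map3k1 (25.5% and 44.6%) and Map2k7 (20.8% and 50.7%). The median member was covered over 2.35% in replicate 1 and 14.2% in replicate 2, while the median of all autosomal coding genes was 0% in each. Between 20 and 100 kb the medians were 7.00% and 18.3% for members, beside 0% and 2.66% for all such genes. The depth of the libraries is unknown, so the 13 members without a peak in either replicate had no detected mark and were not shown to lack it.

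**Figure D1:**
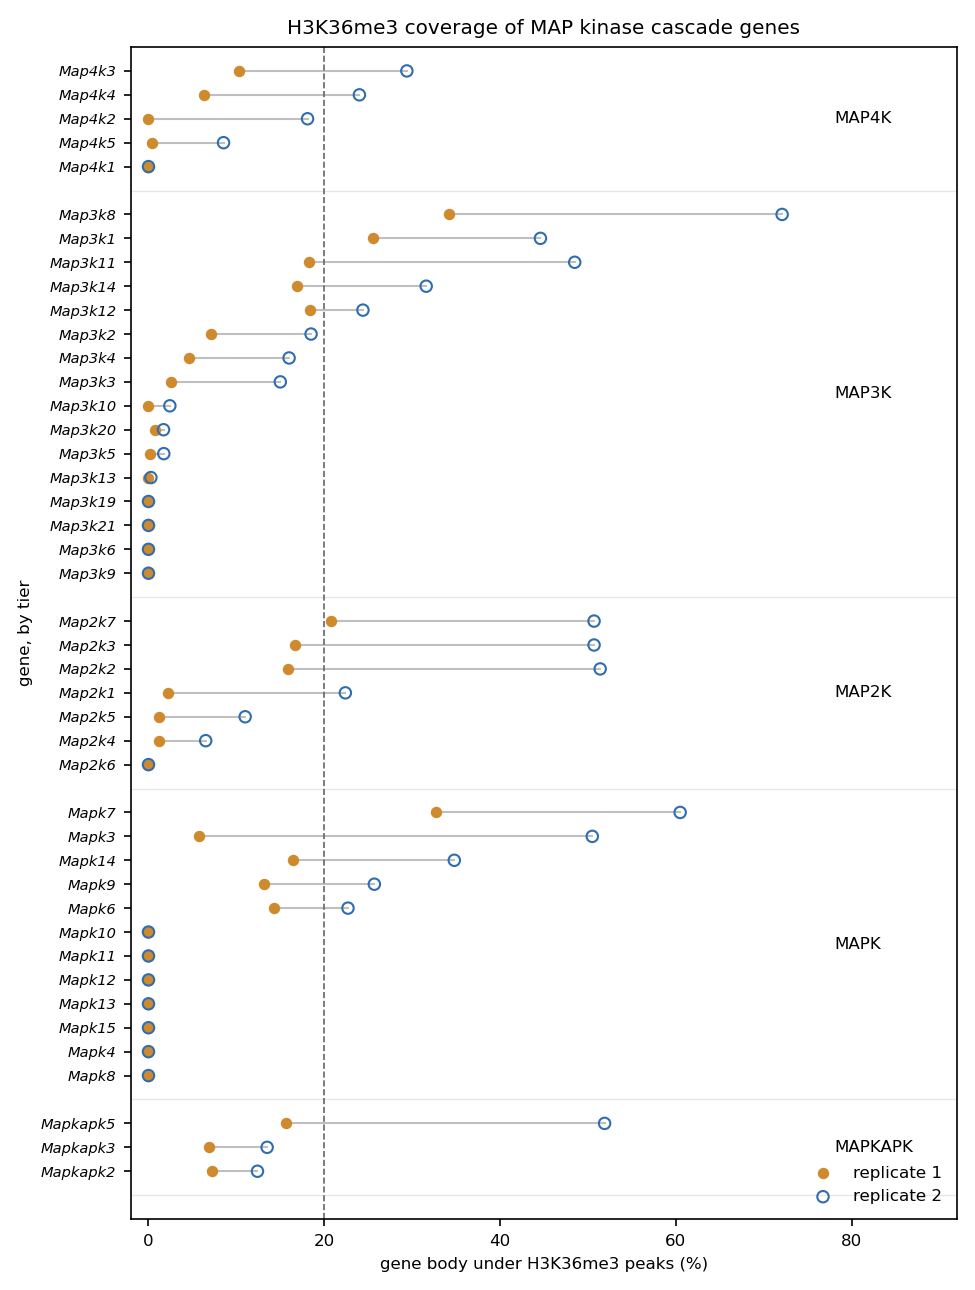
Percent of each gene body under H3K36me3 peaks (x axis) for 43 of the 44 genes, grouped by tier (y axis), in replicate 1 (filled points) and replicate 2 (open points), with the 20% line dashed. The 30 genes plotted with a peak lie further right in replicate 2, and 13 sit at 0 in both replicates.

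The replicates differed in extent, and every member with a peak was covered more in replicate 2. Replicate 1 had 32098 peaks over 28.5 Mb in all and replicate 2 had 58505 over 79.4 Mb. Within the members 141 peaks covered 124 kb in replicate 1, and 264 peaks covered 353 kb in replicate 2. Of the member bases covered in replicate 1, 84.8% were covered in replicate 2 as well (85.2% over all peaks), and of those covered in replicate 2, 29.8% were covered in replicate 1 (30.6%). Peak enrichment, the authors' ratio over the background of their caller, had a median of 3.12 in replicate 1 and 3.82 in replicate 2 within the members, beside 3.22 and 3.83 over all peaks. Across the 44 members the covered percents of the replicates were correlated (Pearson 0.899, Spearman 0.924), a description over genes of the same libraries. Against the labelled cell type, 6 of 11 macrophage markers reached 20% in replicate 1 and 10 of 11 in replicate 2. The background was 8.06% and 24.6% of all autosomal coding genes. In both replicates, 20% was reached by 0 of 6 T cell, 0 of 6 B cell, 0 of 6 fibroblast and 0 of 5 dendritic cell markers. Of 6 neutrophil markers only Csf3r reached it (22.8% and 68.2%), and the other 5, among them Elane and S100a8, had no peak.

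At the top of the cascade, the MAP4K genes ranged from no peak on Map4k1 to 43.4 kb under peaks on Map4k3 in replicate 2. These Ste20-like kinases relay signals from receptors and small GTPases to MAP3Ks, and their median covered percent was 0.366% in replicate 1 and 18.1% in replicate 2. Map4k3 (GLK), at chromosome 17, 80580512 to 80728485, was covered over 10.3% and 29.4% of 148 kb. That made 15.2 kb under peaks in replicate 1 and 43.4 kb in replicate 2, and its longest peak in replicate 2, of 8.27 kb, was the longest on any member. Map4k4 (HGK), at chromosome 1, 39900913 to 40026310, was covered over 6.34% and 24.0% of 125 kb. Map4k5 (KHS) was covered over 0.366% and 8.54%, the replicate 1 value resting on 1 peak. Map4k2 was at 0% and 18.1%, with peaks in replicate 2 only. Map4k1 (HPK1), a kinase known for restraining lymphocyte receptor signals, had no peak in either replicate. No MAP4K gene reached 20% in replicate 1, and Map4k3 and Map4k4 did in replicate 2. The shares over all autosomal coding genes were 8.06% and 24.6%.

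The MAP3K tier spanned the full range, from the most covered member to genes with no peak. Its median was 1.62% in replicate 1 and 8.72% in replicate 2. Of its 16 genes, 2 and 5 reached 20%, beside 8.06% and 24.6% of all autosomal coding genes. Map3k8, which encodes Tpl2, the kinase through which Toll-like receptors activate MEK1 and MEK2 in macrophages, was the highest at 34.2% and 72.1% of 21.7 kb (chromosome 18, 4331327 to 4353015). It stood above 97.5% of autosomal coding genes in replicate 1 and above 98.5% in replicate 2. Map3k1 (MEKK1), a kinase upstream of JNK, was covered over 25.5% and 44.6% of 62.6 kb at chromosome 13, 111746428 to 111808993. Its longest peaks, 6.04 kb and 6.49 kb, lay past the midpoint of the gene. Map3k11 (MLK3) was at 18.3% and 48.5% and Map3k12 (DLK) at 18.4% and 24.4%, the 2 members closest below 20% in replicate 1, where Map2k7 at 20.8% was closest above. Part of Map3k12, 13.3% of its body, is shared with other coding genes on the opposite strand, among them Pcbp2, and without the shared bases it stood at 19.2% and 22.5%.

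Among further MAP3Ks, Map3k2 (MEKK2) was covered over 7.12% and 18.5%, Map3k3 (MEKK3) over 2.53% and 15.0%, and Map3k4 (MEKK4) over 4.64% and 16.0%. These were partial marks: each stayed under 20% in both replicates, on bodies of 70.8 to 91.2 kb. Map3k5, which encodes the oxidative stress kinase ASK1, was at 0.163% and 1.74% of 208 kb, and Map3k20 (ZAK), a sensor of stalled ribosomes, at 0.706% and 1.71% of 157 kb. Map3k10 (MLK2) and Map3k13 (LZK) had a single peak each, in replicate 2 only, covering 2.43% and 0.272%. No peak was found on Map3k6 (ASK2), Map3k9 (MLK1), Map3k19 or Map3k21 (MLK4).

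Map3k14, which encodes NIK, the kinase of the non-canonical NF-κB pathway, held the peaks of highest enrichment on any member in both replicates. It was covered over 16.9% and 31.6% of 47.7 kb at chromosome 11, 103219762 to 103267472. The strongest peak reached an enrichment of 4.88 in replicate 1 (chromosome 11, 103230599 to 103231940) and 8.51 in replicate 2 (103224914 to 103232107), values above 99.4% and 99.9% of the peaks in their lists. The summits, at 103231213 and 103231172, lay 76.0% and 76.1% of the way along the gene. The 300 bases centred on the replicate 2 summit (chr11:103231022-103231321, mm10, minus strand, 5′ to 3′) are shown because both replicates placed their strongest member signal there. Capitals mark the 132 bases that are exonic, all of them coding, and lower case the introns on either side.
Map3k14: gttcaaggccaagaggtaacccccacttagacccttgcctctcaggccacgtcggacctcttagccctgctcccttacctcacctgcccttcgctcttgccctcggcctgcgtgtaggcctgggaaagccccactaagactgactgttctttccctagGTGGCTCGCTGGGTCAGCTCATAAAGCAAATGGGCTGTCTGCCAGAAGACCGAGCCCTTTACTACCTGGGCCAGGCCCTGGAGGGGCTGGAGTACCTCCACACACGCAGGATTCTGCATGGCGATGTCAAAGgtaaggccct
The window holds an exon with the ends of both adjoining introns, and all 300 bases also lay under a replicate 1 peak.

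The MAP2K tier had a peak on 6 of its 7 genes in each replicate, beside 30.5% and 39.9% of all autosomal coding genes. Its median was 2.17% in replicate 1 and 22.4% in replicate 2. Map2k7 (MKK7), which activates JNK, was covered over 20.8% and 50.7% of 9.16 kb at chromosome 8, 4238740 to 4247897. Of that body 98.6% is shared with Gm49320, a record on the same strand that runs on past the gene and was itself at 15.2% and 37.0%, so covered bases cannot be assigned to either. The 300 bases around the summit of its strongest peak in replicate 2, with an enrichment of 6.25 (chr8:4244769-4245068, mm10, plus strand), are shown for that replicate. In replicate 1 the strongest peak on the gene lay elsewhere, with its summit 80.9% of the way along. Capitals mark 150 exonic bases.
Map2k7: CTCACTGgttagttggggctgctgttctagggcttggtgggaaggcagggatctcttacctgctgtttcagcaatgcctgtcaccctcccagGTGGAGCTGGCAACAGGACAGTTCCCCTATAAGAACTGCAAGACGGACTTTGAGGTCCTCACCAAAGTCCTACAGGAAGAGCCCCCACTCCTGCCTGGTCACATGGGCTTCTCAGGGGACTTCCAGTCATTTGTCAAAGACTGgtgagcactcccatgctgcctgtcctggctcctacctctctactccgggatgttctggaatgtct
The exon bases in this window are all coding, and all 300 bases were under a peak in replicate 1 too.

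Map2k3 (MKK3), which activates p38 kinases, was covered over 16.7% and 50.7% of 20.8 kb, and Map2k2 (MEK2), which activates ERK1, over 15.9% and 51.4% of 28.1 kb. Map2k1 (MEK1) was at 2.17% and 22.4% of 67.9 kb. Both MEK genes were thus past 20% in replicate 2 only. Map2k5 (MEK5), the activator of ERK5, was at 1.15% and 11.0% of 214 kb, spread over 29 peaks in replicate 2 with a median enrichment of 3.42. Map2k4 (MKK4), which acts on JNK and p38, was at 1.24% and 6.51% of 100 kb. Map2k6 (MKK6), which like MKK3 activates p38, had no peak in either replicate across 126 kb.

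Among the MAP kinases themselves, 6 genes had peaks in both replicates and 7 had none in either. The median of the tier was therefore 0% in each replicate, as it was for all autosomal coding genes. Of those, 30.5% and 39.9% had a peak in replicates 1 and 2. Mapk7, which encodes ERK5, was highest at 32.7% and 60.5% of only 5.59 kb (chromosome 11, 61488812 to 61494406). Exons make up 78.5% of its body, and its single peak in replicate 2, from 61488887 to 61492270 with an enrichment of 6.08, was 82.7% exonic. The 300 bases at its summit (chr11:61490965-61491264, mm10, minus strand) are coding exon throughout, and so are all in capitals. They are shown as the counterpart of the Map3k14 window, with no intron in it.
Mapk7: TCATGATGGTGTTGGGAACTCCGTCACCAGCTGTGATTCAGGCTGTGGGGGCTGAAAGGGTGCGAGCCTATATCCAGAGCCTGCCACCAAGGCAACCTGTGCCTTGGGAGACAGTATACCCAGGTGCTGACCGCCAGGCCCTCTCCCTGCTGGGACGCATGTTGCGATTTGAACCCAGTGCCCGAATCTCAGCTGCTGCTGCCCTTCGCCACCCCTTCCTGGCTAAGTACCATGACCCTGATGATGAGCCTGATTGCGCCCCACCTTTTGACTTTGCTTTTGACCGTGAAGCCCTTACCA
All 300 bases were under a peak in replicate 1 as well.

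Mapk3 (ERK1) was covered over 5.76% and 50.5% of 6.22 kb, the widest gap between replicates among the MAP kinases. It held 1 peak in each replicate, of 0.358 kb and 3.50 kb. Mapk14 (p38α), the main p38 kinase of macrophages, was at 16.4% and 34.8% of 57.1 kb. Mapk9 (JNK2) was at 13.2% and 25.7% of 39.7 kb, and Mapk6 (ERK3), an atypical MAP kinase, at 14.3% and 22.7%. No peak in either replicate lay on Mapk4 (ERK4), Mapk8 (JNK1), Mapk10 (JNK3), Mapk11 (p38β), Mapk12 (p38γ), Mapk13 (p38δ) or Mapk15. Of these 7, Mapk8 alone had peaks in the authors' combined lists, over 1.64% of its body in the pooled list and 1.18% in the replicated list.

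The 3 MAPKAP kinase genes all had peaks in both replicates, beside 30.5% and 39.9% of all autosomal coding genes in replicates 1 and 2. Mapkapk2 (MK2), which p38 activates and which acts on the stability of cytokine mRNAs, was covered over 7.27% and 12.4% of 44.1 kb, and its relative Mapkapk3 (MK3) over 6.89% and 13.5% of 35.0 kb. In both genes the last 10% of the body held most of the mark in replicate 1, with first covered bases 39.9 kb and 32.2 kb from the start. Mapkapk5 (MK5) was at 15.6% and 51.9% of 20.9 kb. Of its body 98.0% is shared with Adam1a and Gm42878, records on the same strand that were each at 14.6% in replicate 1, so its coverage cannot be told apart from theirs.

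Read along the cascades, the ERK, p38, JNK and ERK5 routes each had peaks on at least 1 MAP2K gene and 1 MAP kinase gene in both replicates, and on the p38 and JNK routes some paralogues had none. On the ERK1 route, Map3k8, Map2k1, Map2k2 and Mapk3 were covered over 72.1%, 22.4%, 51.4% and 50.5% in replicate 2. On the p38 route these values were 50.7% for Map2k3 and 34.8% for Mapk14, with 0% for Map2k6, Mapk11, Mapk12 and Mapk13. For JNK they were 6.51% for Map2k4, 50.7% for Map2k7 and 25.7% for Mapk9, with 0% for Mapk8 and Mapk10. The value of Map2k7 cannot be told apart from that of Gm49320, with which it shares 98.6% of its body. On the ERK5 route Map3k2 and Map3k3 stood at 18.5% and 15.0%, Map2k5 at 11.0% and Mapk7 at 60.5%. All the values above 0% were lower in replicate 1, as given above. These are shares of gene bodies of different lengths, and no order of transcription was read from them.

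Genes planned as paralogue pairs were next set side by side, and their median gap was wider in replicate 2. How closely the kinases of a pair are related was not measured. Of 18 pairs, 0 differed by 20 percentage points or more in replicate 1 and 11 in replicate 2, with median gaps of 11.6 and 23.4 points. In 2 pairs in replicate 1 and 9 in replicate 2, 1 gene reached 20% and the other did not. A gap of 20 points needs 1 gene at 20% or more. Among the 44 members, 4 (9.09%) were in replicate 1 and 17 (38.6%) in replicate 2. No count over pairs of unrelated genes was made, so the pair counts are not read as particular to paralogues. The order of the pair was the same in both replicates in 12 pairs. Map2k3 exceeded Map2k6 by 16.7 points in replicate 1 and by 50.7 in replicate 2, the widest gap of replicate 2. Map3k11 exceeded Map3k10 by 18.3 and 46.1 points, and Map2k7 exceeded Map2k4 by 19.6 and 44.2 points, the widest gap of replicate 1, with the reservation above on the shared body of Map2k7. Map3k8 exceeded Map3k14 by 17.2 and 40.5 points, Mapk14 exceeded Mapk11 by 16.4 and 34.8, and Map2k2 exceeded Map2k1 by 13.7 and 29.0. Mapk9 exceeded Mapk8 by 13.2 and 25.7 points, Map3k12 exceeded Map3k13 by 18.4 and 24.1, Mapk6 exceeded Mapk4 by 14.3 and 22.7, and Map4k3 exceeded Map4k5 by 9.93 and 20.8.

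Other pairs showed little or no stable difference. Mapkapk2 and Mapkapk3 differed by 0.385 and 1.02 points, with opposite signs, less than the gap between replicates of either gene. Map3k2 exceeded Map3k3 by 4.59 and 3.54 points, and Map3k5 exceeded Map3k6 by 0.163 and 1.74. Map4k2 exceeded Map4k1 by 18.1 points in replicate 2 only. The pairs Mapk8 and Mapk10, Mapk13 and Mapk12, and Map3k9 and Map3k21 had no peak on either gene. With 2 replicates these are descriptions, and in 11 of the 15 pairs with unequal coverage in replicate 2 the longer gene was the less covered.

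**Figure D2:**
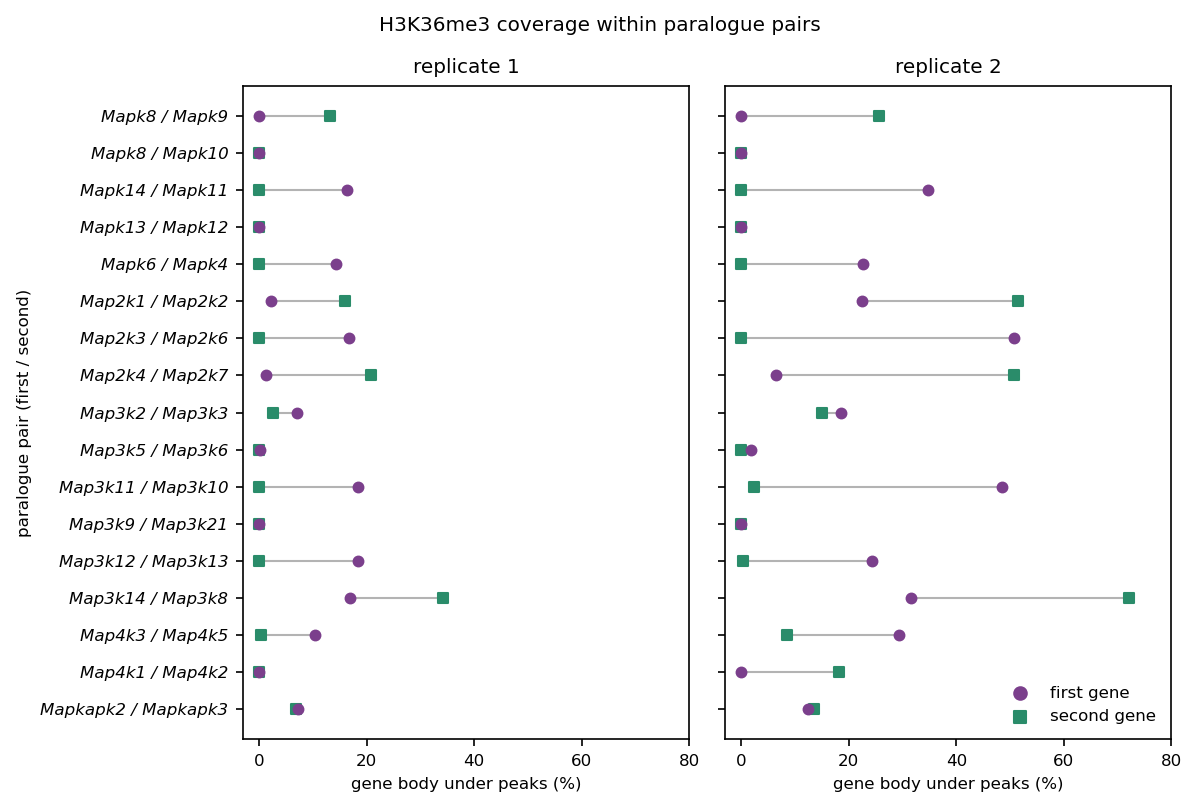
Percent of the gene body under peaks (x axis) for 17 of the 18 paralogue pairs (y axis) in replicate 1 (left) and replicate 2 (right), with circles for the first gene named and squares for the second. In replicate 2 the pair Map2k3 and Map2k6 spans 50.7 points, while Mapkapk2 and Mapkapk3 lie 1.02 points apart.

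A pair of p38 genes lies side by side, and the last peaks of the first ended inside it. Mapk14 (chromosome 17, 28691329 to 28748406) and Mapk13 (28769297 to 28780233) run in the same direction, 20.9 kb apart. In replicate 1 the last peak of Mapk14 ended 55.7 kb from its start, and in replicate 2 it ended at 56.9 kb, just inside the gene end at 57.1 kb. The next peaks began 115 kb from the Mapk14 start in both replicates, inside Brpf3, a gene of chromatin regulation that was covered over 51.5% in replicate 2. Mapk13, between these covered genes, had no peak. The other neighbours of this kind, Mapk12 and Mapk11 on chromosome 15, lie 1.78 kb apart and neither had a peak.

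**Figure D3:**
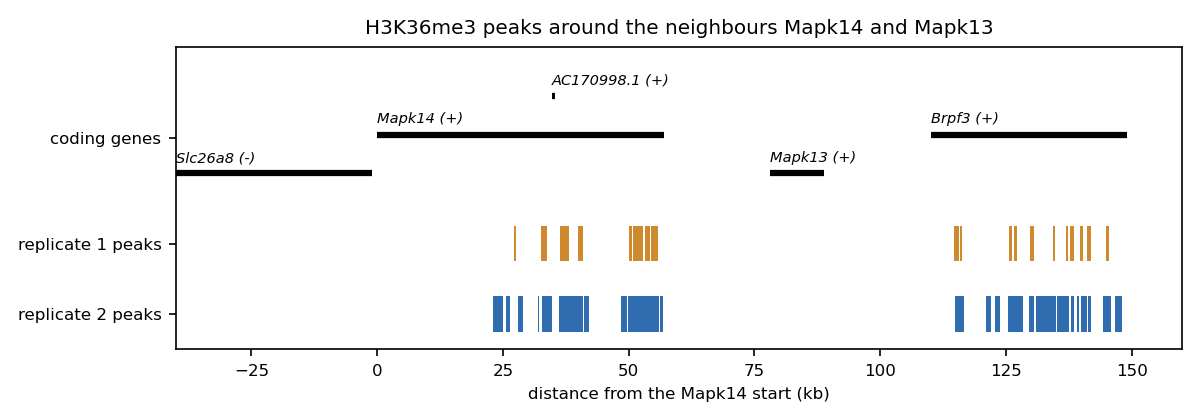
Coding genes (black bars, with strand) and H3K36me3 peaks of replicate 1 (upper row) and replicate 2 (lower row) against distance from the Mapk14 start in kb (x axis). Peaks fill much of the later part of Mapk14 and lie over parts of Brpf3, and none lies over Mapk13.

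The starts of Mapk14, Mapk13 and Mapk8 are shown to set a covered gene beside uncovered ones. Each is the 250 bases before the RefSeq start (GRCm38.p6), with CG in capitals, at chr17:28691092-28691341 (plus strand), chr17:28769067-28769316 (plus strand) and chr14:33447159-33447408 (minus strand).
Mapk14: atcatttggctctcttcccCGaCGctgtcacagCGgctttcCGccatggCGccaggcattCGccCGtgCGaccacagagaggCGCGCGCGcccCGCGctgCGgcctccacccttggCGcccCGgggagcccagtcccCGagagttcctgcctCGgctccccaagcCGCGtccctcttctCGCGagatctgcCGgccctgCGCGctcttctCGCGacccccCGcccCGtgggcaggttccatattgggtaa
Mapk13: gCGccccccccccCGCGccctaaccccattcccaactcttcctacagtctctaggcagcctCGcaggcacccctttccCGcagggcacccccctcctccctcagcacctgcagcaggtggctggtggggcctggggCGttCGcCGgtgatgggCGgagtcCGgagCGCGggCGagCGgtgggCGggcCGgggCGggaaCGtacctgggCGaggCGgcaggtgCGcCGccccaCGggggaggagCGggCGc
Mapk8: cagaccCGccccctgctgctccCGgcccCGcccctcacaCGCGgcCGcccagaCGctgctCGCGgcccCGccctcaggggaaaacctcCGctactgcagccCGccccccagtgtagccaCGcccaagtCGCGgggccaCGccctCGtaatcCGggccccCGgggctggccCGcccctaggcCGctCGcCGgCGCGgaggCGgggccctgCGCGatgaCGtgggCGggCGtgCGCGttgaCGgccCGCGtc
They hold 30, 25 and 36 CG dinucleotides, with a GC content of 70.4%, 76.0% and 79.2%. All 3 starts are thus rich in CG, and only the first belongs to a gene with peaks in the replicates. RefSeq promoter windows of 300 bases, counted for CG (its own reverse complement, so the same on both strands), were matched within 1000 bp of the GENCODE start for 35 members. The 25 with a peak in replicate 2 had a median of 28 CG, from 12 to 55. The 10 without had a median of 18, from 8 to 45, so the ranges overlapped. Among those 10, Mapk8 (45 CG) and Mapk13 (34 CG) had the highest counts. The starts shown for these genes are therefore not typical of members without a peak. Over all 32851 promoter windows the median was 7, and 94.6% held at least 1 CG.

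Along the members the mark lay toward the 3′ end. Averaged over the replicates, 85.2% of covered member bases lay past the midpoint of the gene. In replicate 1, 26 of 28 members with a peak had more than 50% of their covered bases past the midpoint, and in replicate 2, 25 of 31 did. The matching share and counts over all autosomal coding genes were not made, so these values are not read as particular to the members. Over the 17 members at 20% in replicate 2, the first 10% of the body was covered over 0.853% in that replicate and the last over 65.6%, with the highest value, 70.0%, in bin 7 of 10. The 4715 autosomal coding genes of at least 5 kb that reached 20% in replicate 2 had 3.29% in the first bin, 56.9% in the last and 65.3% in the highest, bin 9. In bin 3 the members stood at 11.6% and these genes at 29.4%. These sets were not matched for length, so the difference is not read as particular to the members. The first covered base of a member lay a median of 33.2 kb from its start in replicate 1 and 14.1 kb in replicate 2, with the nearest in each, 2.95 kb and 2.14 kb, at Mapk7. A median of 23.0% of a member's covered bases was exonic in replicate 1 and 27.1% in replicate 2, the highest being 100% and 82.7% at Mapk7. At Map2k5 the share was 2.92% and 1.13%, and it was 0% at Map3k5 in replicate 1 and at Map3k10 and Map3k13 in replicate 2.

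**Figure D4:**
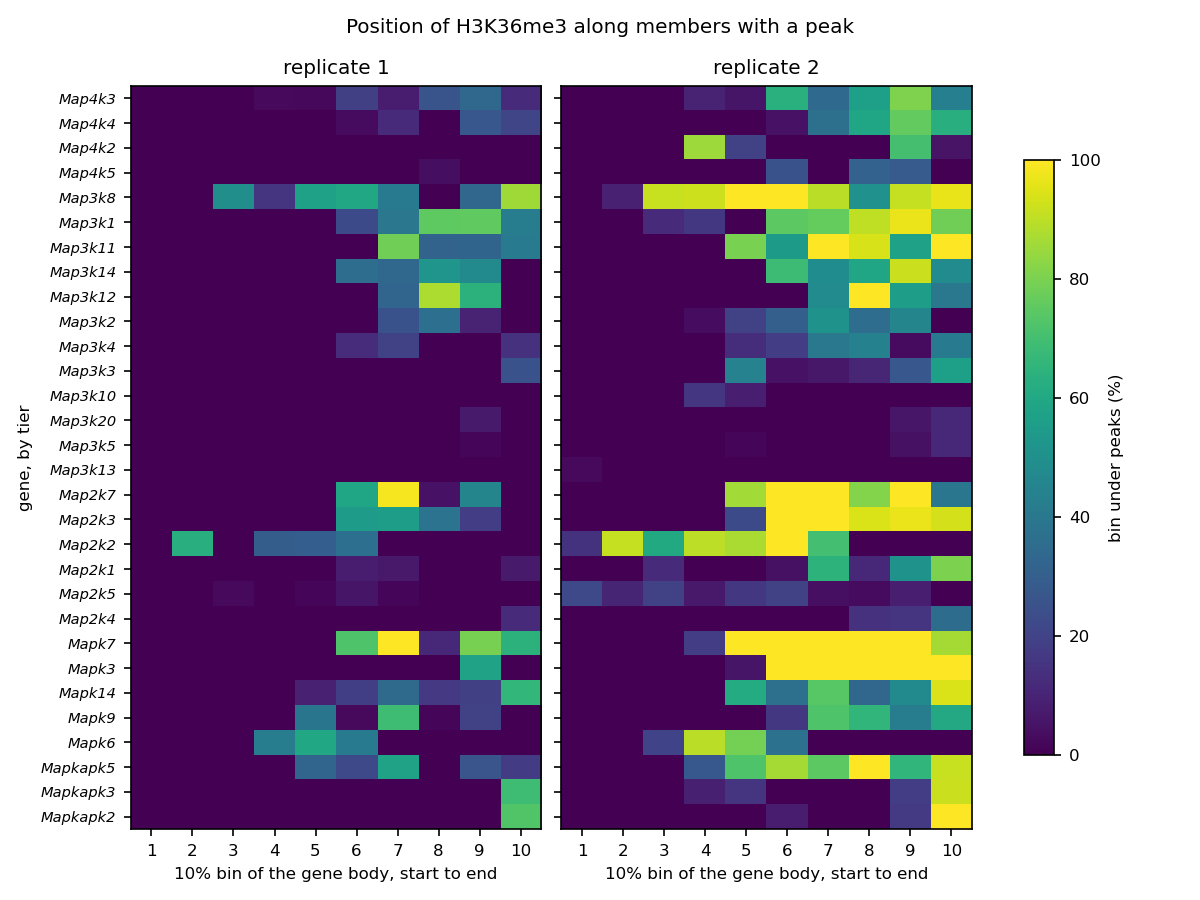
Percent of each 10% bin of the gene body under peaks (colour, 0 to 100%), from gene start to gene end (x axis), for 30 of the 31 members with a peak in replicate 2 (y axis, by tier), in replicate 1 (left) and replicate 2 (right). Most rows brighten past the middle, while Map2k2 and Mapk6 are bright in the middle and dark at the end.

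A few members did not follow this order. Map2k2 had 23.1% and 33.1% of its covered bases past the midpoint, and Mapk6 had 29.0% and 16.7%. In both genes the annotated record runs well past the longest protein-coding transcript, by 9.28 kb at Map2k2 and 17.8 kb at Mapk6. That extra stretch held 0 kb and 0.0890 kb of covered bases at Map2k2, and 0.307 kb and 0 kb at Mapk6. Within the coding transcript alone, Map2k2 (chromosome 10, 81105915 to 81124697) was covered over 23.7% and 76.3%, and Mapk6 (chromosome 9, 75386904 to 75410005) over 24.1% and 40.2%. With transcripts in place of gene records, 6 members reached 20% in both replicates, Map2k2 and Mapk6 joining the 4 above. Map2k5 was a different case: in replicate 2 only 32.1% of its covered bases lay past the midpoint, with 21.9% of the first bin under peaks and 0% of the last. Map4k2, Map3k10 and Map3k13, with 3, 1 and 1 peaks in replicate 2, made up the rest.

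Coverage differed between length classes, with replicate 2 medians of 10.2% for members under 20 kb, 18.3% from 20 to 100 kb and 1.73% from 100 kb. In replicate 2 the 7 members covered over 50% or more were Map3k8, Mapk7, Mapkapk5, Map2k2, Map2k3, Map2k7 and Mapk3, all of 28.1 kb or shorter. Of the 10 members of 100 kb or more, 0 reached 20% in replicate 1 and 2 in replicate 2, beside 1.52% and 10.1% of all autosomal coding genes of that length. Map2k6, Mapk4 and Mapk10 in this class had no peak. Of 12 members under 20 kb, 7 had a peak in replicate 2, beside 30.8% of all such genes, and 5 had none in either replicate (Map3k6, Mapk11, Mapk12, Mapk13 and Mapk15). Between 20 and 100 kb, 20% was reached by 2 of 22 (9.09%) in replicate 1 and by 10 (45.5%) in replicate 2, beside 10.5% and 31.7% of all autosomal coding genes of that length. Across the 44 members, length and mean covered percent had a rank correlation of -0.186 (Spearman), given as a description.

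**Figure D5:**
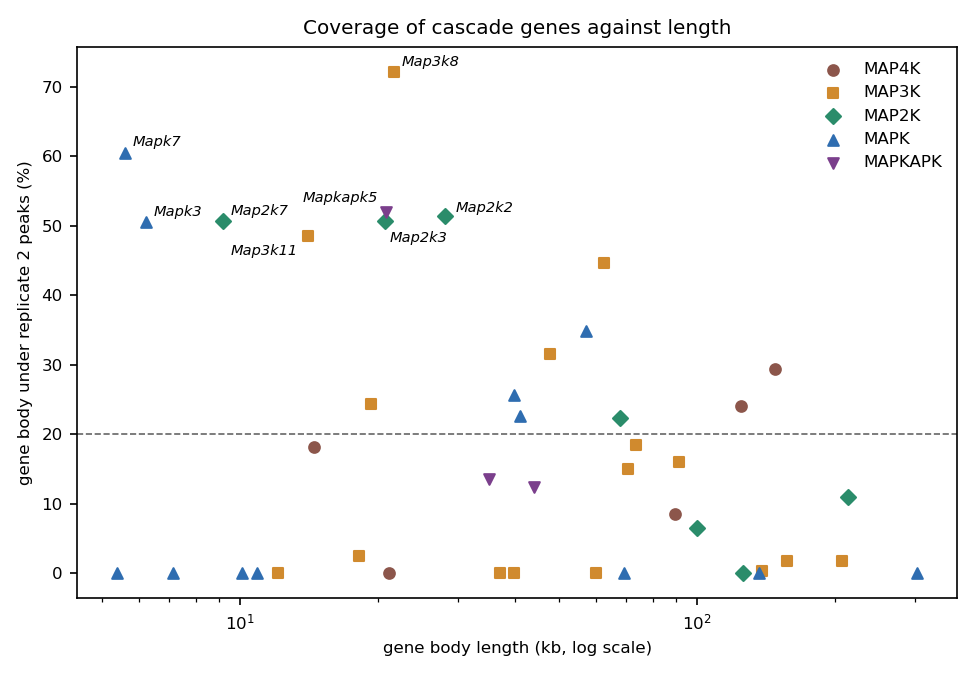
Percent of the gene body under replicate 2 peaks (y axis) against gene body length in kb (x axis, log scale) for 43 of the 44 genes, with a marker for each tier and the 20% line dashed. The genes above 45% are named and are all 28.1 kb or shorter, and genes at 0 occur at both ends of the length range.

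Other genes of the pathway were taken from 5 lists. Of 25 Ras and Raf inputs, 3 reached 20% in replicate 1 and 11 in replicate 2, against the background of 8.06% and 24.6%. They were led by the small GTPase genes Rac2 (34.9% and 68.8%), Nras (28.5% and 72.1%) and Hras (22.6% and 44.1%), while 6 had no peak, among them Rasgrp4 and Rras2. Of 24 scaffolds and adaptors, 6 and 14 did. Mapk8ip3, a JNK scaffold (40.2% and 65.0%), the arrestin gene Arrb2 (37.8% and 67.0%) and the kinase gene Taok3 (34.0% and 61.6%) were highest, and 9 had no peak, among them Mapk8ip2 and the X-linked Tab3. Of 16 phosphatases that act on the cascade, mostly dual-specificity phosphatases, 0 and 3 reached 20%. These were Dusp3 (9.44% and 40.8%), Ptpn7 (4.67% and 40.1%) and Dusp7 (0% and 29.7%), and 7 had no peak, among them Ptprr and the X-linked Dusp9. Of 25 downstream kinases and transcription factors, 6 and 8 did, led by the nucleosomal kinase gene Rps6ka4 (MSK2, 43.3% and 85.6%), Mknk1 (27.4% and 59.1%) and Mef2d (28.7% and 52.4%), while 7 had none, among them Rps6ka2 and the X-linked Rps6ka6. The other 5 of these, named here after their values were seen, were the AP-1 genes Jun, Junb, Jund, Fosb and Fosl1. They are 1.67 to 8.40 kb long, and of all autosomal coding genes under 20 kb 30.8% had a peak in replicate 2. Other AP-1 genes of this list had peaks, among them Fos (12.3% and 32.7%) and Fosl2 (17.5% and 26.1%). Of 17 Ste20-like kinases outside the naming pattern, 2 and 6 did. Taok3 and Taok2 (34.4% and 58.5%) led, followed by Stk4 (14.3% and 51.1%), and 4 had no peak, among them Stk39 and Tnik. The Taok genes stand in 2 of the lists. The lists are small and overlap in function, and their counts were not tested.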

How the data were processed

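H3K36me3 ChIP-seq peaks of 2 replicates of unstimulated bone marrow-derived macrophages were used. Per the deposited descriptions, the authors made a peak list from each replicate's own alignments, a pooled list and a replicated list, on mm10. The aligner and caller were not given in the sources used here. For each peak the authors deposited an enrichment, a ratio over the caller's background, a −log10 p and a −log10 q, and a display score that was not used. The enrichment and −log10 q served only to describe or filter peaks within a list. The lists hold no read counts, so depth is unknown and no interval could be given.

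Peaks were merged per list and their bases counted over GENCODE M21 gene bodies, in coordinates of GRCm38, the assembly of mm10. Where a symbol had several records, the longest stood for it. Bodies were cut into 10 bins. The threshold of 20% was varied to 10% and 50%, and the alternatives also kept peaks with a −log10 q from 5 or with an enrichment from 3, or used bodies without bases shared with other coding genes, the longest protein-coding transcript, the combined lists and each replicate alone. RefSeq bodies, and leaving out members overlapped over 90% or more, were added after seeing the data. Of 19 paralogue pairs planned, 1 named a symbol with no record and was not formed. Every member could be named, but 1 member's own values and 1 marker gene are not reported here, and both stay in the counts. From each pathway list the 3 highest and 2 lowest by mean coverage were named, with ties ordered by symbol, so the 2 lowest stand for several genes at 0. Members and lists were chosen with earlier results of these data known. Sequences were read from RefSeq GRCm38.p6. Scripts ran under Python 3.11.15 with pandas 2.3.3, numpy 2.4.6, matplotlib 3.10.9 and scipy 1.17.1, and the coverage arithmetic was tested on simulated data.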

Additional observations from a re-analysis of the deposited data

How the results depend on the processing

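The count of 4 members at 20% in both replicates followed replicate 1. It ranged from 4 to 17 with 1 replicate alone, and was 19 in the authors' pooled list and 18 in their replicated list. Counted from 10% of the body it was 14 in both replicates and 14 in replicate 1, and from 50% it was 0, 0 and, in replicate 2, 7. With a −log10 q of at least 5 it was 0 in both and 0 in replicate 1, and with an enrichment of at least 3 it was 1 and 1. Without the members overlapped over 90% or more it was 3, and 15 in replicate 2. With RefSeq bodies, as with transcripts, it was 6. Over 18 pairs and the alternatives that keep both replicates, 78 of 90 differences stayed within 1 SD of the replicates, a wide margin here, and 11 moved further. The other, Map2k4 against Map2k7, reversed to 3.87 points when shared bases were left out, because only 0.125 kb of Map2k7 is then left. The 78 include the pairs with no peak on either gene, which stayed at 0 under each of these alternatives and could not move. Tier medians moved by less than that SD but by large factors. The MAP4K median, as the mean of replicates, went from 9.03% to 1.24% with a −log10 q of at least 5, and the MAP2K median from 12.3% to 5.99% with it and to 6.07% without shared bases. The MAP3K and MAPKAPK medians went from 4.99% to 2.94% and from 10.2% to 6.73% with that q. The 3′ share, run under 1 alternative, was 84.8% with an enrichment of at least 3. The labels name 1 donor record and the depth is unknown, and the source of the spread between replicates was not tested. No paired analysis was possible because there is 1 group.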

Other observations

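Peaks also lay in the 2 kb past the annotated end of some members. The largest values in replicate 2 were at Mapk3 (21.4% and 85.1% of the 2 kb in replicates 1 and 2), Mapkapk5 (33.0% and 75.0%), Map2k5 (0% and 42.0%) and Map3k8 (22.3% and 40.1%). The stretch past Mapkapk5 lies within the same-strand records Adam1a and Gm42878. The peaks past Map2k5 do not continue from the gene, whose last covered base in replicate 2 was at 89.8% of the body. The next coding gene past Mapk3, Gdpd3, begins 0.514 kb on and was covered over 4.60% and 27.5%. Past Map3k8 the next coding gene lies 149 kb away.

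Some members lay beside genes of other kinds that were covered more in both replicates, and 2 of them, chosen after their values were seen, are described here. They were not the only ones, since Akt2, past Map3k10, was at 3.88% and 40.1%. Past other members, such as Map3k14, the next coding gene had no peak, and no count over all members was made. The gene past Map3k2, Ercc3, which encodes a helicase of transcription and DNA repair, was covered over 25.4% and 78.1%, against 7.12% and 18.5% for Map3k2. Sf1, a splicing factor gene 8.07 kb past Map4k2, was at 42.5% and 68.6%, against 0% and 18.1% for Map4k2.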
